A study of Rattus norvegicus with 28 samples.

Results

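The genes described here are 10 genes of cartilage matrix and of calcification, namely Chad, Acan, Comp, Cilp, Alpl, Spp1, Mgp, Runx2, Enpp1 and Tnfrsf11b. They were chosen by their known roles and by the measured difference between the low and the high wall shear stress (WSS) region of the rat aorta, and Chad and Alpl belong to the 43 of 11750 tested genes (0.366%) that differed by more than 1 on the log2 scale. Each gene was looked up by its symbol among the probe sets that carry 1 gene symbol. Of the 10 genes, 8 had such a probe set, 1 each, out of 17245 genes with a probe set of 1 symbol. Comp and Spp1 were not analysed here, for want of a probe set with their symbol in the annotation used. All 8 genes reached the mean level of 4 that was set as the minimum for a test.

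The tissue was the normal aorta of untreated male Wistar rats, whose age is not given in the sources used here. Low WSS pools came from the distal lesser curvature of the arch, where the flow is disturbed, and high WSS pools from the outer, greater curvature beyond the origin of the left subclavian artery, where the flow is uniform. Each of the 14 low WSS and 14 high WSS pools held pieces of the entire wall from 5 animals, so the spread between the animals of a pool cannot be seen. By the methods the pools of a pair came from the same 5 animals, and pools of the same replicate number were taken here as a pair. Each pool was hybridised to 1 Rat Gene 1.1 ST array, and a level is the log2 value that the authors obtained with RMA. The array medians were 4.85 to 4.92 in low WSS and 4.88 to 5.00 in high WSS. A difference is the low WSS level minus the high WSS level of the same pair, on the log2 scale. It comes with its SE from the limma fit over 14 pairs. That SE is moderated, as the variance of each probe set is drawn towards a value common to all. Smooth muscle was present in both regions. Myh11, the smooth muscle myosin heavy chain, averaged 12.23 in low WSS pools and 12.19 in high WSS pools. Its markers were not all level between the regions. Lmod1 had a difference of -0.25 (SE 0.05, adjusted p = 0.000303, limma). Myh11, Tagln, Cnn1 and Smtn did not pass that test, with differences of 0.04, 0.06, 0 and -0.1. For the mean of these 5 genes the pair difference averaged -0.05 (SD 0.13). In pieces of whole wall, fewer cells of a type and less RNA per cell cannot be told apart.

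Cartilage is built around collagen II fibrils and aggrecan, and small leucine-rich proteins such as chondroadherin tie the fibrils to each other and to cells. Mineral forms where phosphate is set free and its inhibitor pyrophosphate is removed. Tissue-nonspecific alkaline phosphatase, encoded by Alpl, does both, whereas Enpp1 makes pyrophosphate. The arterial wall holds several of these genes without being cartilage or bone, and its smooth muscle cells are kept free of mineral by inhibitors such as matrix Gla protein.

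The promoter windows of Chad, Alpl and Runx2 are given as descriptions of sequence, and no link between a promoter and a level was tested. The level of Alpl was set against those of the other genes by Pearson r (permutation test). With Chad it passed among low WSS pools (r = 0.85, adjusted p = 0.0134), and with Runx2 among high WSS pools (r = 0.75, adjusted p = 0.0333). Neither relation passed by Spearman rho (adjusted p = 0.0714 and 0.109). By r neither passed in pairs 4 to 14 alone (adjusted p = 0.77 for both) or without the 2 farthest pools (adjusted p = 0.103 for both). Among high WSS pools Chad did not pass with Alpl (r = 0.64, adjusted p = 0.188) or with Runx2 (r = 0.53, adjusted p = 0.358). Each window runs from 250 bases before to 50 bases after the RefSeq start, in build GRCr8, and is written 5′ to 3′ on the strand of the gene. The submitters' processing notes name build rn4 for the arrays, so the windows were matched by symbol and not by position. Capitals mark matches to the 3 motifs searched on both strands, an element of Runx factors, an element of Sox factors and the TATA box, each spelled out with its result, and no 2 matches overlapped.
Chad, chr10:80008795-80009094, plus strand: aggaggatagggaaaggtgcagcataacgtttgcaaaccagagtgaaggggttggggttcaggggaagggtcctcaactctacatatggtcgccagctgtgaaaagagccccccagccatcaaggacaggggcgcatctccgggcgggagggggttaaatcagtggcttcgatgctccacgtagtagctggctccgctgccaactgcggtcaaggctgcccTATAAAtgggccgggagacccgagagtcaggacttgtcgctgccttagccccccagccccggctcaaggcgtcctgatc
Alpl, chr5:155289736-155290035, minus strand: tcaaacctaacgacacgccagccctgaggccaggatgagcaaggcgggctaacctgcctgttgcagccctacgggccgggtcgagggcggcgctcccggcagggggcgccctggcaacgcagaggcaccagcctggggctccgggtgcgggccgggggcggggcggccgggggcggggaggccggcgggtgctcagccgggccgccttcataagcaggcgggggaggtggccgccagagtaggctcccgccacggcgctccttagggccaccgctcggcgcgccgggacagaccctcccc
Runx2, chr9:23664808-23665107, plus strand: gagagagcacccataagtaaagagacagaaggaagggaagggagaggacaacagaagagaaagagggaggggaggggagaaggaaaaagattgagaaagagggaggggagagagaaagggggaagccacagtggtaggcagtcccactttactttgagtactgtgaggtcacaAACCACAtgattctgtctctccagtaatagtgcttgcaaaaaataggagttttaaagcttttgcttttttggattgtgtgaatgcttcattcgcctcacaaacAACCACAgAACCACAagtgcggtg
The Chad window held 1 TATA box, searched as TATAAA, with its first base at position -29 from the start, a motif found in 14.2% of all 33469 windows of this length. None of the 3 motifs was found in the Alpl window, which had a GC content of 76.3%, against a median of 51.7% over all windows. The Runx2 window held the Runx element, searched as AACCACA, 3 times, at -77, 27 and 35, and 5.57% of all windows held it at least once. A second RefSeq start of Runx2, with its window at chr9:23742990-23743289, had none of the 3. The Sox element, searched as ACAATGG, was in 3.9% of all windows and in none of those of the 7 genes that have one here, which are Chad, Acan, Comp, Cilp, Alpl, Spp1 and Runx2. A match is a description of the sequence and not a binding site.

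The low and high WSS regions differed widely in Chad and Alpl and much less in the other genes. Of the 8 genes measured, 5 passed an adjusted p of 0.05 (limma, Benjamini-Hochberg), 1 higher in low WSS (Acan) and 4 lower (Chad, Alpl, Runx2 and Enpp1). Over all genes tested, 41.7% passed, 19.7% higher and 22% lower. With the arrays centred on their medians, all 8 passed, 4 higher and 4 lower, while the split over all probe sets moved to 3699 higher and 2228 lower, against 2739 and 2905 as deposited. The levels of the low and the high WSS pools did not overlap for 2 of the 8 genes, Chad and Alpl, against 1.13% of all genes, and 3 of the 8 differed in the same direction in all 14 pairs, against 9.22% of all genes. Since this contrast chose the genes, these counts and the differences of the 8 genes are descriptions and support nothing further. The median difference was -0.07 over the 8 genes and -0.0053 over all genes.

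**Figure D1:**
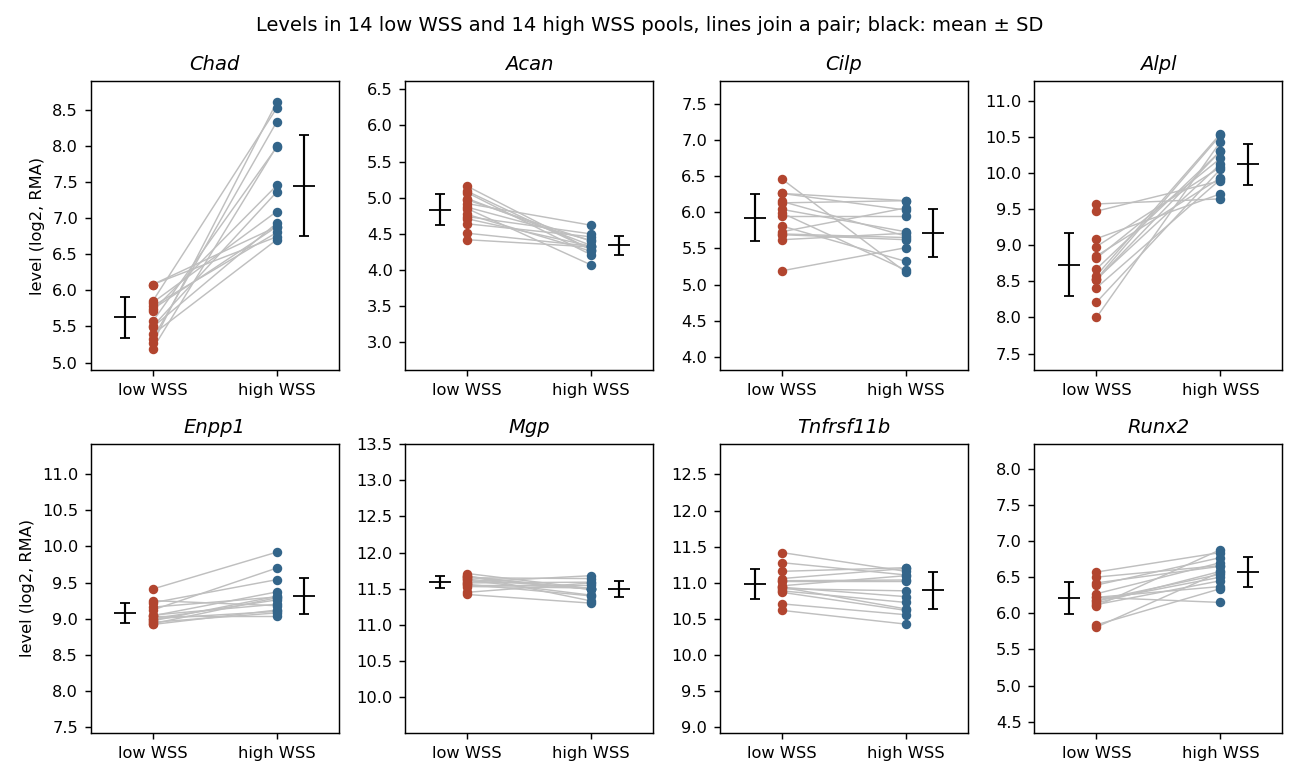
Levels (log2, RMA) of the 8 measured genes in 14 low WSS pools (red, left) and 14 high WSS pools (blue, right), each panel spanning 4 log2 units; grey lines join the pools of a pair and black bars give the mean and SD. The low and high WSS pools are apart for Chad and Alpl and overlap for the other 6 genes.

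Among the genes of cartilage matrix, Chad encodes chondroadherin, a leucine-rich protein of cartilage that binds collagen and the integrin with the alpha 2 chain. Its level in the 14 low WSS pools ran from 5.19 to 6.08 with a median of 5.64, and in the 14 high WSS pools from 6.70 to 8.60 with a median of 7.22. Every low WSS pool lay below every high WSS pool. The high WSS pools were widely spread, with the highest levels in pools 4, 12 and 13 (8.60, 8.52 and 8.33) and the lowest in pools 9, 3 and 1 (6.70, 6.74 and 6.80). The difference was -1.82 (SE 0.20), and the 14 pairs ran from -3.34 in pair 4 to -0.65 in pair 3. All 14 pairs were therefore lower in low WSS, by very unequal amounts.

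Acan encodes aggrecan, the large proteoglycan that binds water in cartilage. Its level was 4.42 to 5.16 (median 4.86) in low WSS and 4.07 to 4.62 (median 4.33) in high WSS. The ranges overlapped, but within each of the 14 pairs the low WSS pool was the higher. The difference was 0.49 (SE 0.07), with the smallest values in pairs 1, 2 and 3 (0.18, 0.10 and 0.18) and the largest in pair 8 (0.88). These levels are close to the minimum of 4, at the dim end of the arrays.

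Cilp encodes the cartilage intermediate layer protein, a matrix protein that also occurs outside cartilage. Its level was 5.19 to 6.46 (median 5.97) in low WSS and 5.17 to 6.16 (median 5.69) in high WSS. The ranges overlapped almost fully, with 10 of 14 pairs higher in low WSS. The difference was 0.22 (SE 0.10) and did not pass the test, and pair 3 alone had a difference of 1.29. Without pair 3 it was 0.13, and with arrays centred on their medians it was 0.25 and just passed (adjusted p = 0.0499).

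Of the enzymes that set the balance of phosphate and pyrophosphate, Alpl was at 8.00 to 9.57 (median 8.62) in low WSS and 9.64 to 10.54 (median 10.10) in high WSS. The pools did not overlap, although the highest low WSS pool (pool 3, 9.57) came close to the lowest high WSS pool (pool 3 too, 9.64). The difference was -1.38 (SE 0.15), and the pairs ran from -2.43 in pair 7 to -0.08 in pair 3. Pairs 1, 2 and 3 had the 3 smallest differences, at -0.62, -0.42 and -0.08. In these 3 pairs the low WSS pools were the 3 highest of their region (9.09, 9.47 and 9.57) and the high WSS pools the 3 lowest of theirs (9.71, 9.89 and 9.64).

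Enpp1 encodes the enzyme that releases pyrophosphate from nucleotides outside the cell. Its level was 8.92 to 9.41 (median 9.04) in low WSS and 9.04 to 9.92 (median 9.27) in high WSS. The ranges overlapped, and 12 of 14 pairs were lower in low WSS, whereas pair 3 went the other way and pair 2 was level. The difference was -0.24 (SE 0.05), and the most negative pairs were pairs 7 and 6 (-0.59 and -0.51).

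Among the inhibitors of calcification, Mgp encodes matrix Gla protein, which has to be carboxylated with vitamin K to act. Its level was 11.42 to 11.71 (median 11.60) in low WSS and 11.30 to 11.68 (median 11.50) in high WSS. These were narrow ranges that overlapped almost fully. The difference was 0.10 (SE 0.04), it did not pass the test, and 10 of 14 pairs were higher in low WSS. It passed in 7 of 26 other settings, among them without pair 7 (0.11, adjusted p = 0.0314) and without pair 12 (0.11, adjusted p = 0.0417).

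Tnfrsf11b encodes osteoprotegerin, the secreted decoy receptor for the osteoclast factor RANKL. Its level was 10.62 to 11.42 (median 10.95) in low WSS and 10.43 to 11.21 (median 10.96) in high WSS. The groups overlapped, with 9 of 14 pairs higher in low WSS. The difference was 0.09 (SE 0.04) and did not pass the test. It passed in 4 of 26 other settings, including those without pair 1 or pair 6 (both 0.11, adjusted p = 0.0362 and 0.0373), and it was 0.01 when the arrays were quantile normalized again.

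Runx2 encodes the transcription factor of osteoblasts and of hypertrophic chondrocytes. Its level was 5.81 to 6.57 (median 6.20) in low WSS and 6.15 to 6.88 (median 6.57) in high WSS. The ranges overlapped, and 13 of 14 pairs were lower in low WSS. The difference was -0.36 (SE 0.06). Pairs 10 and 9 had the most negative differences (-0.79 and -0.76), and pair 3 was the exception at 0.07.

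Chad, Alpl, Runx2 and Enpp1 kept their direction and passed the test in all 26 alternative settings that were run, and Acan in the 25 that could test it. Leaving out any single pair moved Chad between -1.91 and -1.70 and Alpl between -1.49 and -1.30. Pairs 1, 2 and 3, in which Chad, Alpl and Acan had their 3 smallest differences, are also pairs in which the mean level of 7 fat cell genes was higher in low WSS, by 2.25, 4.18 and 3.27. The same 3 pairs had the 3 highest differences of the means of endothelial markers (0.60, 0.90 and 0.92, against -0.70 to 0.25 in the other pairs), fibroblast markers (0.21, 0.38 and 0.37, against -0.60 to 0.01) and macrophage markers (0.63, 0.65 and 0.44, against -0.68 to 0.17). The part of these cell types in the differences of Chad, Alpl and Acan was not tested. The fat cell mean was higher by 3.58 in pair 7 too, where Chad differed by -2.80 and Alpl by -2.43. Over all pools that mean ran from 5.68 to 10.11 in low WSS and from 5.32 to 9.84 in high WSS. With it as a covariate the difference was -1.96 (SE 0.22) for Chad, -1.50 (SE 0.16) for Alpl and 0.57 (SE 0.07) for Acan. In pairs 4 to 14 alone it was -2.09 (SE 0.20) for Chad, -1.66 (SE 0.10) for Alpl and 0.59 (SE 0.06) for Acan. All 3 differences were thus larger in both settings than over all 14 pairs. In pairs 4 to 14 this had to be so, because the 3 smallest differences of each gene were left out, and nothing is drawn from it.

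Markers of cartilage cells gave little signal. Of 8 chondrocyte markers other than the genes above, 3 (Matn3, Hapln1 and Ucma) had mean levels under 4. Col2a1, the collagen that defines cartilage, averaged 5.25 ± 0.16 in low WSS and 5.13 ± 0.19 in high WSS (SD, n = 14 each), and did not pass the test (difference 0.12, SE 0.06, adjusted p = 0.103). The mean of the remaining 5, Col2a1 among them, ran from 4.39 to 4.74 in low WSS and from 4.44 to 4.82 in high WSS, with a pair difference of 0.01 ± 0.12 (SD). The mean of 5 osteoblast markers ran from 5.45 to 5.77 in low WSS and from 5.60 to 5.82 in high WSS, with 12 of 14 pairs lower in low WSS. Of these 5, Sp7, Bglap and Ibsp, which define osteoblasts, did not pass the test and had mean levels between 4.08 and 4.40 in both regions. The other two passed it, as Dmp1, which encodes a phosphoprotein of osteocytes and dentin, fell by 0.34 (SE 0.08, adjusted p = 0.00201), lower in 14 of 14 pairs, and Ifitm5, a membrane protein of osteoblasts, by 0.22 (SE 0.06, adjusted p = 0.00707), lower in 12 of 14 pairs. The part of these markers in the differences of Chad and Alpl was not tested.

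**Figure D2:**
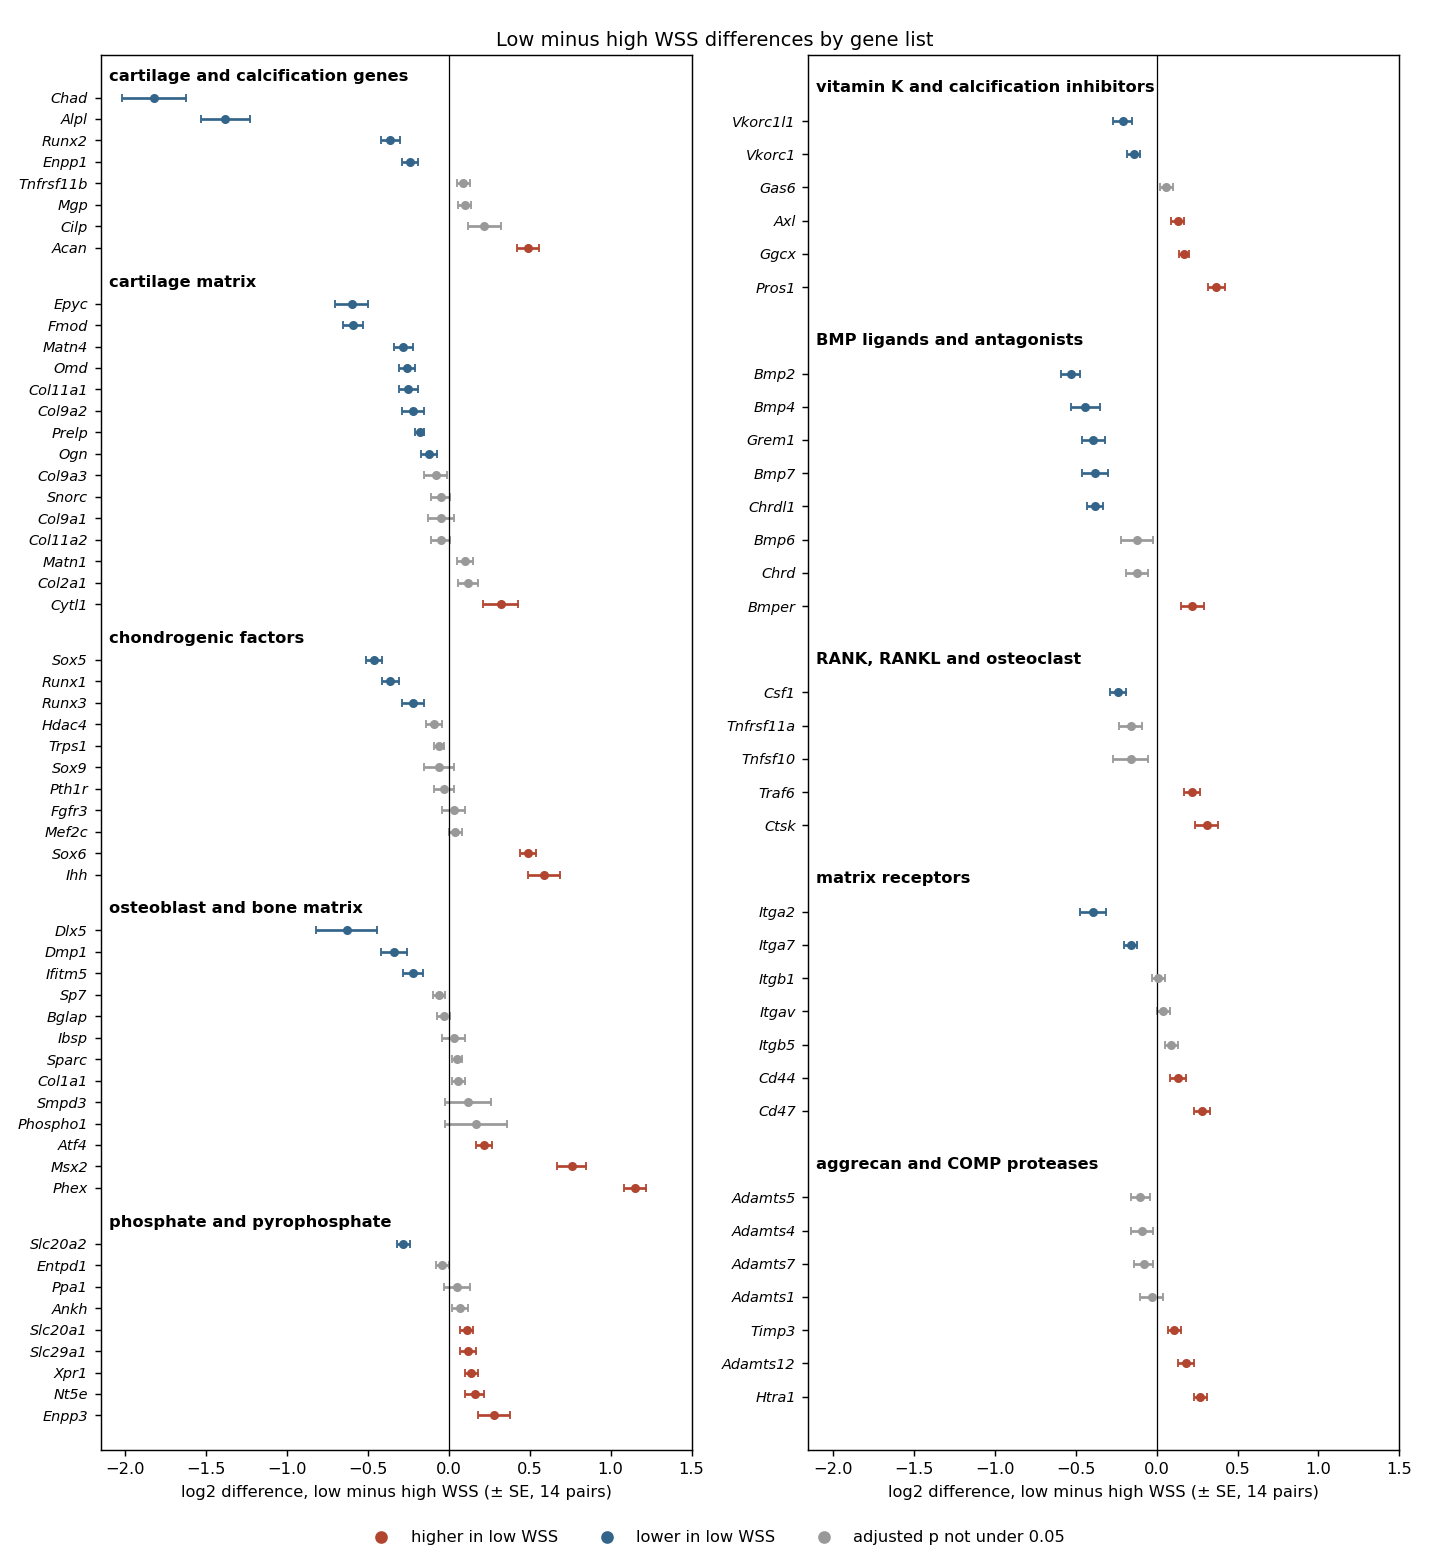
Differences (log2, low minus high WSS, with the moderated SE of the limma fit over 14 pairs) of the 8 genes and of 81 other genes in 9 lists. Red marks genes higher in low WSS and blue genes lower at an adjusted p under 0.05, grey those that did not pass. Chad at -1.82 and Alpl at -1.38 lie farthest to the left, and Phex at 1.15 farthest to the right.

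Related genes were followed in 9 lists, which held 107 genes, 81 of them measured at a mean level of at least 4. In low WSS 22 of the 81 rose and 25 fell, leaving 34 that did not pass, that is 58.0% called against 41.7% of all genes. Their median difference was -0.04. The lists were written with earlier results of these data known and several hold genes reported before from the same arrays, so that the counts are not independent evidence.

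In the list of cartilage matrix genes, 8 of 15 tested fell in low WSS and 1 rose, with a median difference of -0.125. Of the 8 that fell, 5 (Epyc, Fmod, Omd, Prelp and Ogn) encode small leucine-rich proteins, which are found in tendon, skin and vessel walls as well as in cartilage, and the others are Matn4, Col11a1 and Col9a2. Fmod, which encodes the collagen-binding protein fibromodulin, averaged 10.39 ± 0.36 in low WSS and 10.98 ± 0.17 in high WSS (SD, n = 14 each) and fell by 0.59 (SE 0.06, adjusted p = 9.88e-07). Epyc, which encodes epiphycan, fell by 0.60 (SE 0.10, adjusted p = 0.000144). Prelp and Omd, of the same protein family, fell by 0.18 (SE 0.03, adjusted p = 0.000145) and by 0.26 (SE 0.05, adjusted p = 0.000289). These 4 genes were lower in low WSS in all 14 pairs. Cytl1, which encodes a secreted cytokine-like protein, rose by 0.32 (SE 0.11, adjusted p = 0.0289).

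The transcription factors and signals of chondrocytes did not move together. Of 11 tested, 2 rose, 3 fell and 6 did not pass the test, so that 45.5% were called, near the 41.7% of all genes. Sox9, the factor that starts the cartilage programme, averaged 6.36 ± 0.30 in low WSS and 6.42 ± 0.26 in high WSS (SD, n = 14 each), with a difference of -0.06 (SE 0.09, adjusted p = 0.608). Its partners Sox5 and Sox6 went opposite ways. Sox6, at 6.89 to 7.41 in low WSS against 6.37 to 6.88 in high WSS, did not overlap between the regions and rose by 0.49 (SE 0.05, adjusted p = 5.33e-07). Sox5 fell by 0.46 (SE 0.05, adjusted p = 2.62e-06), lower in low WSS in all 14 pairs. Runx1, a relative of Runx2, fell by 0.36 (SE 0.05, adjusted p = 2.44e-05), and Ihh, the hedgehog ligand of the growth plate, rose by 0.59 (SE 0.10, adjusted p = 0.000134), with 13 of 14 pairs higher.

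Of 13 tested genes of osteoblasts and bone matrix, 3 rose, 3 fell and 7 did not pass the test. That is 46.2% called, near the 41.7% of all genes. Phex, which encodes an endopeptidase of osteoblasts and osteocytes whose loss causes phosphate wasting in humans and mice, stood out. Its level was 6.54 to 7.54 (median 7.01) in low WSS and 5.34 to 6.50 (median 5.97) in high WSS, without overlap. It rose by 1.15 (SE 0.07, adjusted p = 5.73e-09), as it did in each of the 14 pairs. Msx2, a homeobox gene of craniofacial bone, rose by 0.76 (SE 0.09, adjusted p = 6.55e-06), and Atf4, a stress and osteoblast factor, rose by 0.22 (SE 0.05, adjusted p = 0.00135). Dmp1 and Ifitm5, described above, were among the 3 that fell. With the smooth muscle genes Tagln and Cnn1 as covariates, 3 of the list passed and Atf4 did not (adjusted p = 0.0554).

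In the list of phosphate and pyrophosphate genes, 5 of 9 tested rose and 1 fell (66.7% called, against 41.7% of all genes). The rises were small. Slc20a2, a sodium-dependent phosphate importer, fell by 0.28 (SE 0.04, adjusted p = 1.04e-05), lower in 13 of 14 pairs. Xpr1, the phosphate exporter, rose by 0.14 (SE 0.04, adjusted p = 0.016), but missed the threshold with the fat cell mean as a covariate and in pairs 4 to 14 alone (0.11 in both, adjusted p = 0.0804 and 0.0844). Enpp3, a relative of Enpp1, rose by 0.28 (SE 0.10, adjusted p = 0.0302) and Nt5e, the CD73 ecto-enzyme that makes adenosine, by 0.16 (SE 0.06, adjusted p = 0.036). The list held 1 call in pairs 4 to 14 alone, 2 without the pairing, 2 with the fat cell mean as a covariate, 3 by the paired t-test of the methods, 3 with Tagln and Cnn1 as covariates, and 2 or 3 when pair 1, 2, 3, 8, 9, 10 or 14 was left out. Enpp3 missed the threshold without pair 1, 2, 3 or 8 (adjusted p = 0.0561 to 0.0629) and Nt5e without pair 1, 2, 3, 5, 8, 9, 10 or 14 (adjusted p = 0.0539 to 0.0763).

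Of 6 tested genes of the vitamin K cycle and of other inhibitors, 3 rose and 2 fell (83.3% called, against 41.7% of all genes). Ggcx, the carboxylase that activates Mgp, rose by 0.17 (SE 0.03, adjusted p = 0.000849). Both reductases that recycle vitamin K fell, Vkorc1 by 0.14 (SE 0.04, adjusted p = 0.00634) and Vkorc1l1 by 0.21 (SE 0.06, adjusted p = 0.00923). Pros1, the vitamin K-dependent protein S, rose by 0.37 (SE 0.05, adjusted p = 3.75e-05). The circulating inhibitor Ahsg and the phosphate hormone system of Kl and Fgf23 had mean levels under 4 and were not tested. With Tagln and Cnn1 as covariates 3 of the list passed, and Vkorc1 differed by -0.06 (adjusted p = 0.38).

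Ligands and antagonists of the bone morphogenetic protein (BMP) pathway, which induces Runx2 and Alpl in bone cells, were mostly lower in low WSS. Of 8 tested, 5 fell and 1 rose (75.0% called, against 41.7% of all genes), with a median of -0.38. Bmp2 averaged 6.02 ± 0.33 in low WSS and 6.56 ± 0.36 in high WSS (SD, n = 14 each) and fell by 0.53 (SE 0.06, adjusted p = 2.27e-06), in all 14 pairs. Bmp4 fell by 0.44 (SE 0.09, adjusted p = 0.000519). The antagonists Chrdl1 and Grem1 fell as well, by 0.38 (SE 0.05, adjusted p = 1.21e-05) and by 0.39 (SE 0.07, adjusted p = 4e-04), each in all 14 pairs. With Tagln and Cnn1 as covariates 3 of the list passed, and Bmp4 (adjusted p = 0.109) and Grem1 (adjusted p = 0.0646) did not.

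Of the partners of osteoprotegerin, Tnfsf11, which encodes RANKL, averaged 2.58 in low WSS and 2.66 in high WSS, under the minimum of 4, and Tnfrsf11a, which encodes its receptor RANK, differed by -0.16 (SE 0.07, adjusted p = 0.0573). Of 5 tested genes of the list, 2 rose and 1 fell, so that 3 of 5 were called, against 41.7% of all genes. Ctsk, the collagenase of osteoclasts that other cells also make, rose by 0.31 (SE 0.07, adjusted p = 0.00202) and the signal adaptor Traf6 by 0.22 (SE 0.05, adjusted p = 0.00337), while Csf1, the macrophage growth factor, fell by 0.24 (SE 0.05, adjusted p = 0.00113). None of the 3 passed with Tagln and Cnn1 as covariates (adjusted p = 0.0625 for Ctsk, 0.135 for Traf6 and 0.102 for Csf1).

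Of 7 tested receptors for these matrix proteins, 2 rose, 2 fell and 3 did not pass (57.1% called, against 41.7% of all genes). Itga2, the alpha 2 chain of the chondroadherin-binding integrin, averaged 3.85 in low WSS and 4.24 in high WSS and fell by 0.39 (SE 0.08, adjusted p = 0.000717), at levels near the minimum of 4. Its beta partner Itgb1 differed by 0.01 (SE 0.04, adjusted p = 0.906). Cd47, which encodes a thrombospondin receptor, rose by 0.28 (SE 0.05, adjusted p = 0.000166), with all 14 pairs higher. Itga7, a laminin-binding chain, fell by 0.16 (SE 0.04, adjusted p = 0.00732). That call was lost without the pairing (adjusted p = 0.0874) and with the fat cell mean as a covariate (-0.11, adjusted p = 0.0525). Cd44, the hyaluronan receptor, rose by 0.13 (SE 0.05, adjusted p = 0.0404), which no longer passed without pair 1, 2, 3, 4, 5, 6, 7 or 14 (adjusted p = 0.0501 to 0.0825) or without the pairing (adjusted p = 0.271).

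Of 7 tested genes for proteases that cleave aggrecan or COMP and an inhibitor of them, 3 rose and 4 did not pass. The share called, 42.9%, was near the 41.7% of all genes. Htra1, a secreted serine protease, rose by 0.27 (SE 0.04, adjusted p = 6.74e-05). Adamts12, a COMP-cleaving enzyme, rose by 0.18 (SE 0.05, adjusted p = 0.00807). Its call was lost without the pairing (adjusted p = 0.195) and in pairs 4 to 14 alone (0.14, adjusted p = 0.0586). The inhibitor Timp3 rose by 0.11 (SE 0.04, adjusted p = 0.0215). Its difference was 0.02 when the arrays were quantile normalized again (adjusted p = 0.704) and 0.09 in pairs 4 to 14 alone (adjusted p = 0.0981). The aggrecanases Adamts4 and Adamts5 differed by -0.09 (SE 0.07, adjusted p = 0.316) and -0.10 (SE 0.06, adjusted p = 0.199), and Mmp3 and Mmp13 had mean levels under 4. With Tagln and Cnn1 as covariates 1 of the list passed, Htra1.

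Variation among pools of the same region was not what chose the genes. Chad had an SD of 0.29 among low WSS pools and 0.70 among high WSS pools, against medians of 0.16 and 0.17 for probe sets of like mean level. In high WSS the SD was larger than that of 99.0% of 2451 probe sets of like level. Alpl had the reverse order, with an SD of 0.44 in low WSS, larger than that of 98.5% of 1140 probe sets of like level, and 0.28 in high WSS. Mgp was steady, with an SD of 0.09 among low WSS pools and 0.11 among high WSS pools, against medians of 0.10 and 0.12. In pairs 4 to 14 alone the SD of Chad was 0.23 in low WSS and 0.69 in high WSS, and that of Alpl 0.28 in low WSS and 0.22 in high WSS. Without pairs 1, 2 and 3 the spread of Chad in high WSS was thus nearly the same, and that of Alpl in low WSS was narrower.

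**Figure D3:**
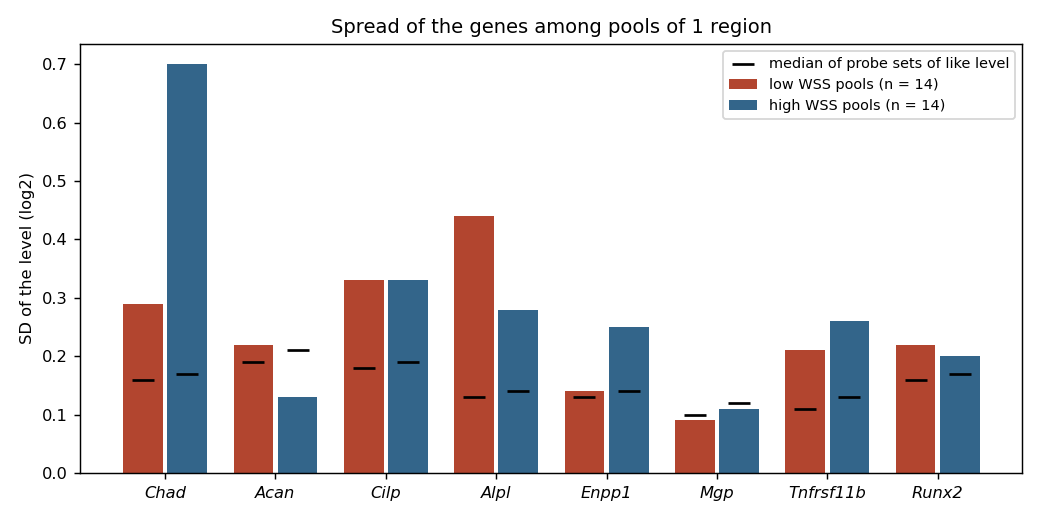
SD of the level (log2) of each gene among the 14 low WSS pools (red, left) and the 14 high WSS pools (blue, right), with the median SD of probe sets of like mean level as a black line. Chad in high WSS (0.70) and Alpl in low WSS (0.44) stand highest above that median.

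Chad and Alpl varied together among pools of 1 region. Among low WSS pools their levels had a Pearson r of 0.85 and a Spearman rho of 0.77 (two-sided permutation p = 0.00016 and 0.0017, adjusted p = 0.0134 and 0.0714, n = 14). Pools 2 and 3 were the highest in both genes and pool 7 the lowest. Without pools 2 and 7, which lay farthest from the median of Chad, r was 0.74, and in pairs 4 to 14 it was 0.66. Among high WSS pools r was 0.64 and rho 0.72 (adjusted p = 0.188 and 0.109), and r was 0.53 without pools 4 and 12 and 0.47 in pairs 4 to 14. The pair differences had r of 0.77 and rho of 0.80 (adjusted p = 0.0316 and 0.0714), with r of 0.82 without pairs 4 and 13 and 0.59 in pairs 4 to 14. The difference between the regions in r was not tested.

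**Figure D4:**
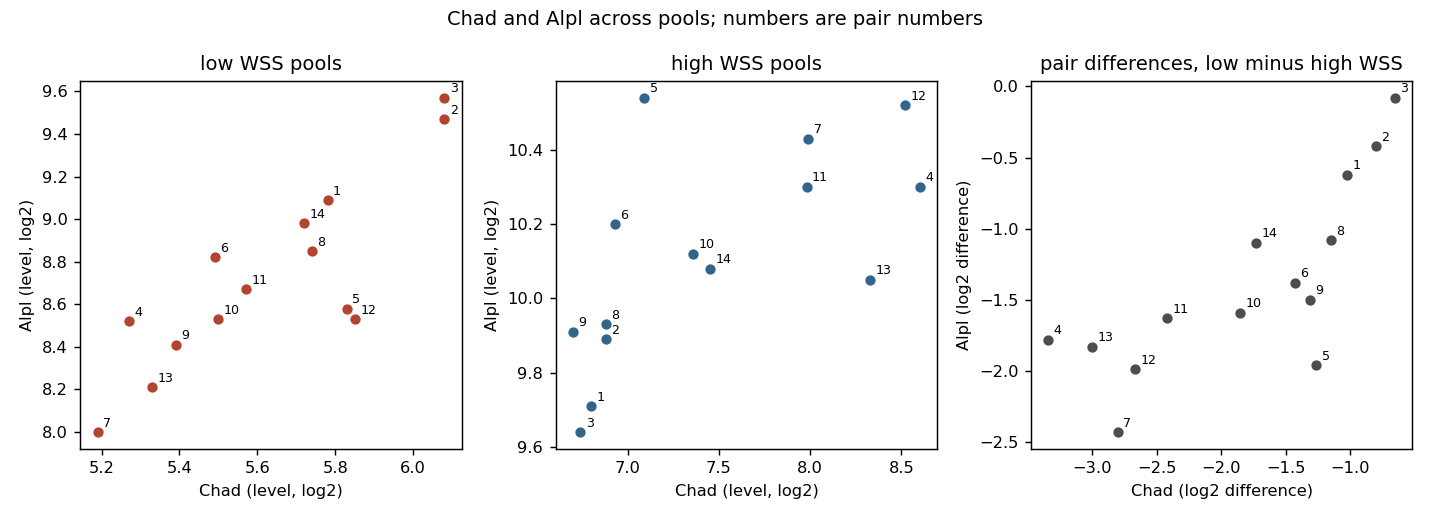
Level of Alpl against that of Chad (log2) in 14 low WSS pools (left) and 14 high WSS pools (middle), and their pair differences, low minus high WSS (right); each point carries its pair number. Pearson's r is 0.85, 0.64 and 0.77, and pairs 1, 2 and 3 lie at the upper end of the pair differences.

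Of 84 relations among the 8 genes, taken over low WSS pools, high WSS pools and pair differences, 5 passed an adjusted p of 0.05 by r and 0 by both r and rho, while 9 had both permutation p under 0.05 before adjustment. Besides both relations of Chad with Alpl, they were Chad with Tnfrsf11b in high WSS (r -0.80, rho -0.67, adjusted p = 0.0316 and 0.157), Alpl with Runx2 in high WSS (r 0.75, rho 0.74, adjusted p = 0.0333 and 0.109) and the pair differences of Alpl with those of Enpp1 (r 0.76, rho 0.67, adjusted p = 0.0333 and 0.157). Without the 2 farthest pools r was -0.81, 0.76 and 0.55 for these 3, and in pairs 4 to 14 it was -0.76, 0.47 and 0.49. In pairs 4 to 14 alone 0 of the 84 passed, and 4 had a permutation p of r under 0.05 before adjustment. Among high WSS pools more Chad thus went with less Tnfrsf11b, in pairs 4 to 14 as well, whereas r of Alpl with Enpp1 was lower without pairs 2 and 3.

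Of 216 relations of the 8 genes with the mean levels of 9 cell type marker lists, 3 passed by r and 0 by both r and rho, while 29 had both permutation p under 0.05 before adjustment. The pair differences of Alpl went with those of the fibroblast mean, with r of 0.83 and rho of 0.65 (adjusted p = 0.018 and 0.144), and r was 0.62 without pairs 2 and 3 and 0.35 in pairs 4 to 14. The fibroblast mean of 6 genes ran from 8.71 to 9.38 in low WSS and from 8.98 to 9.59 in high WSS. Its genes went opposite ways between the regions. Dpt, Dpep1 and Pi16 were lower in low WSS (-0.65, -0.46 and -0.43), and Pdgfra and Col14a1 higher (0.29 and 0.25). Lum did not pass (0.02). The part of the fibroblast mean in the difference of Alpl was not tested. Enpp1 in high WSS had r of 0.83 with the fibroblast mean and -0.87 with the osteoblast mean (adjusted p = 0.018 and 0.0108). Without the 2 farthest pools r was 0.77 and -0.77, and neither passed (adjusted p = 0.203 for both). The relation with the fibroblast mean also missed the threshold with arrays centred (adjusted p = 0.0511) and in pairs 4 to 14 (adjusted p = 0.0698). In the osteoblast mean Sp7, Bglap and Ibsp lay near the minimum of 4, at mean levels of 4.37, 4.10 and 4.35. With the chondrocyte mean, r of Chad was -0.27 in low WSS and 0.10 in high WSS (adjusted p = 0.589 and 0.859). Some other relations in high WSS were larger but did not pass either. The endothelial mean had r of 0.69 with Chad and 0.74 with Alpl (adjusted p = 0.126 and 0.0929). The fibroblast mean had r of 0.73 with Alpl and 0.72 with Runx2 (adjusted p = 0.0929 for both). For Chad with the smooth muscle mean r was -0.56 (adjusted p = 0.216).

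Taking out the mean of each region, the 5 genes whose levels over the 28 pools were most like those of Chad were Lgi4, Gas7, Scn7a, Gpm6b and Myl12b, with r of 0.76, 0.73, 0.72, 0.72 and 0.71. Within a region their r was 0.15 to 0.58 in low WSS, where Chad varied less, and 0.83 to 0.88 in high WSS. Genes with the lowest r with Chad were Mtcl1 and Taar6 (-0.68 and -0.67), then Nacad, Timm8a2 and Fosb (-0.64 each). For Alpl the highest were Sectm1b, Drp2, Igfbp6, Cpm and Chrd, with r of 0.75, 0.74, 0.74, 0.74 and 0.73, and the lowest were Hp, Map4k3, Tmem47, Dgki and Mtrf1l, with r of -0.69, -0.66, -0.64, -0.61 and -0.60. The relations with the 5 highest of Alpl were alike in both regions, at 0.73 to 0.78 in low WSS and 0.69 to 0.79 in high WSS. Chrd encodes chordin, a BMP antagonist of the lists above. These r values are the extremes of 12765 tested probe sets with 1 symbol, over 28 pools of which those of a pair share animals. They are given as a description.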

How the data were processed

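The authors hybridised total RNA of 28 pools, 14 low WSS and 14 high WSS, to Rat Gene 1.1 ST arrays and deposited log2 levels made with RMA (a background correction, then quantile normalization and a summary of the probes). The submitters' processing notes name RMA and build rn4. Probe sets were named through the platform annotation, in which 18644 of 29214 carry 1 symbol, 962 several and 9608 none. Those with a symbol and a mean level of at least 4 were tested (13383), as in the study's methods. limma 3.58.1 in R 4.3.3 fitted region with the pair as a block, with Benjamini-Hochberg adjustment over all probe sets tested. A gene was represented by the probe set of 1 symbol with the highest mean level. By the methods the pools of a pair hold pieces of the same 5 animals, and other pairs those of other animals. The methods do not number the pairs, so pools of the same replicate number in the sample titles were taken as a pair. Deviations of same-numbered pools had r of -0.01 to 0.48, with 11 of 14 pairs above 0.1, against a mean of -0.017 for pools of different numbers. No depth exists for arrays, and their number limits the precision. The fit was tested on simulated data.

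The genes and lists were chosen with earlier results of these data known. Named are the 10 genes, in each list up to 4 genes called with the smallest adjusted p, and for Chad and Alpl the 5 probe sets with the highest and the 5 with the lowest r, while other list genes were named after their values were seen. Correlations used 100000 permutations (numpy 2.4.6 and scipy 1.17.1 in Python 3.11.15) with adjustment over each family. Motifs were searched in RefSeq windows of GRCr8. Alternatives were no pairing, the paired t-test of the methods, trend and robust estimation, array weights, other filters on level, arrays centred or quantile normalized again, Tagln and Cnn1 or the fat cell mean as covariates, pairs 4 to 14, and each pair left out. Each of the 8 genes has 1 probe set, so other probe sets of a gene could not be compared. Protein sequences were not used here.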

Additional observations from a re-analysis of the deposited data

How the results depend on the processing

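Of 206 values of the 8 genes under alternatives, 194 kept their direction and side of the threshold, 12 of Cilp, Mgp and Tnfrsf11b newly passed, and 0 reversed. Of 878 values of the named list genes, 823 kept both, 55 no longer passed and 0 reversed. With Tagln and Cnn1 as covariates 3492 probe sets passed the adjusted p, against 5644, and 305 the Bonferroni threshold, against 1004, and 26 list genes passed, against 47, of which 25 were among the 47. With arrays centred on their medians 8 of the 8 genes passed, against 5, and 715 of 1068 probe sets past Bonferroni were higher in low WSS, against 480 of 1004. Among the relations between the 8 genes 0 passed in pairs 4 to 14 and 0 without the 2 farthest pools, against 5 (4 and 9 before adjustment). Among those with cell type means 1 and 0 passed, against 3 (15 and 26 before adjustment). After centring of the arrays 4 relations between the 8 genes and 2 with cell type means passed. That of Alpl with Runx2 in high WSS then missed the threshold (r 0.72, adjusted p = 0.0581, permutation test). Leaving out each pair gave 5212 to 5845 and 789 to 1052 probe sets, 5 to 6 of the 8 genes and 42 to 47 list genes. Without the replicate block 4856 and 984 probe sets passed, 37 list genes passed, and the same 5 of the 8 genes did. With a mean level of at least 6 the lists of chondrogenic factors, BMP genes and receptors held 2, 3 and 2 calls, from fewer genes tested. The cause of the other changes was not tested. Dim probe sets, Acan among them, limit what could be measured.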

Other observations

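Some further genes of the lists are named here after their values were seen. Dlx5, a homeobox gene that acts upstream of Runx2 in bone, was at levels of 5.26 to 6.48 in low WSS and 5.10 to 7.80 in high WSS, with SDs of 0.39 (low WSS, n = 14) and 0.85 (high WSS, n = 14). It fell by 0.63 (SE 0.19, adjusted p = 0.0136, limma) in low WSS, with 10 of 14 pairs lower. Phospho1, a phosphatase that acts with Alpl when matrix vesicles start to mineralise, was at levels of 4.06 to 5.98 in low WSS and 4.02 to 5.84 in high WSS, and differed by 0.17 (SE 0.19, adjusted p = 0.499). Smpd3, the sphingomyelinase that supplies it with substrate, was at levels of 5.84 to 7.76 in low WSS and 6.16 to 7.53 in high WSS, and differed by 0.12 (SE 0.14, adjusted p = 0.515). Bmp7 fell by 0.38 (SE 0.08, adjusted p = 0.00131) and the BMP-binding protein gene Bmper rose by 0.22 (SE 0.07, adjusted p = 0.0164).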
